A study of Mus musculus with 6 samples.

Results

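The genes described here encode the machinery that brings nuclear-encoded proteins into mitochondria, measured in gastrocnemius (GAS) muscle of mice with and without a skeletal muscle knockdown of *Tet3*, which encodes a DNA dioxygenase that oxidises 5-methylcytosine. Members were taken by name: every gene whose symbol starts with Timm or Tomm, together with *Samm50*, *Mtx1*, *Mtx2*, *Chchd4*, *Gfer*, *Pam16*, *Grpel1*, *Grpel2*, *Pmpca*, *Pmpcb*, *Immp1l* and *Immp2l*, provided that the mean normalised read count over the 6 libraries was at least 10. Of 22027 genes in the table, 38 carried such a name and 36 passed the minimum. *Tomm20l* and *Timm8a2* were listed at 0 in all libraries and fell outside it, while the lowest member inside it, *Timm8a1*, had a mean of 84.5 in WT mice. RNA was poly(A)-selected from GAS muscle of 3 WT and 3 mKD female mice, all 14 weeks old and fed regular chow. The mKD mice carried floxed *Tet3* alleles (Tet3 fl/fl) and the HSA-Cre79 transgene, whose Cre is driven by the human α skeletal muscle actin promoter, so that cells of the muscle other than fibres keep *Tet3*. The WT mice were littermates with floxed *Tet3* and no Cre. The labels also give a time of 48 h for every library without saying what it refers to.

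Nearly all mitochondrial proteins are made in the cytosol and cross the outer membrane through the TOM complex, in which receptors pass precursors to the channel protein Tomm40. From there, β-barrel proteins go to the SAM complex of the outer membrane, small cysteine-rich proteins are trapped in the intermembrane space by the MIA disulphide relay, metabolite carriers are led by small TIM chaperones to the TIM22 complex, and proteins with a cleavable presequence enter the TIM23 channel of the inner membrane. An ATP-driven motor on the matrix side completes their import, and peptidases remove the presequence. Skeletal muscle fibres are rich in mitochondria, which supply much of the ATP for sustained contraction.

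Promoters are shown for 4 members, *Timm8b*, *Pam16*, *Timm10* and *Tomm20*, each of which holds a match to a core given below. These are RefSeq sequences on GRCm38.p6, each of 300 bases around the annotated start, written 5′ to 3′ on the strand of the gene. RefSeq and the annotation used for the gene coordinates do not share their starts: for *Tomm20* the RefSeq start is base 126945921 of chromosome 8, and the other annotation's start, 126945844, lies downstream of the whole window. Capitals mark matches on either strand to GCGC followed by any base and TGCGC, the core bound by the nuclear respiratory factor NRF-1, or to CCGGAAG, a core of ETS factors such as GABP, also called NRF-2. Both factors are known as regulators of nuclear genes for mitochondrial proteins. The windows were chr9:50603651-50603950 (plus strand) for *Timm8b*, chr16:4624897-4625196 (minus strand) for *Pam16*, chr2:84826771-84827070 (plus strand) for *Timm10* and chr8:126945872-126946171 (minus strand) for *Tomm20*.
Timm8b: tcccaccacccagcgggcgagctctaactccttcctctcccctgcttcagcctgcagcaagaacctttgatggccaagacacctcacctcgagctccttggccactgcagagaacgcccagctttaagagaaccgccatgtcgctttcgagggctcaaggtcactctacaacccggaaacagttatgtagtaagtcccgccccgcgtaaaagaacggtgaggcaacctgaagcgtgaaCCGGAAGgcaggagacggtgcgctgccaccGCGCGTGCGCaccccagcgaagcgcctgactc
Pam16: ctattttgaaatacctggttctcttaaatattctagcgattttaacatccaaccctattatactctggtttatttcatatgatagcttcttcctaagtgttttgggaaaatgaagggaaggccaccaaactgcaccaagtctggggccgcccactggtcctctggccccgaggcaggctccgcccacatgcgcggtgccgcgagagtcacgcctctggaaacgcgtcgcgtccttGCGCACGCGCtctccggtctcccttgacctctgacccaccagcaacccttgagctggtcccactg
Timm10: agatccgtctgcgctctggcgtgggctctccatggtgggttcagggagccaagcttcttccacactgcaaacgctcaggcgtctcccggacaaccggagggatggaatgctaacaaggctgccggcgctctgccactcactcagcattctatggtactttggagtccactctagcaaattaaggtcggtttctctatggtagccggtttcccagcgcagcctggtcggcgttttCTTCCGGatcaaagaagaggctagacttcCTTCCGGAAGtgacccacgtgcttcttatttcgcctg
Tomm20: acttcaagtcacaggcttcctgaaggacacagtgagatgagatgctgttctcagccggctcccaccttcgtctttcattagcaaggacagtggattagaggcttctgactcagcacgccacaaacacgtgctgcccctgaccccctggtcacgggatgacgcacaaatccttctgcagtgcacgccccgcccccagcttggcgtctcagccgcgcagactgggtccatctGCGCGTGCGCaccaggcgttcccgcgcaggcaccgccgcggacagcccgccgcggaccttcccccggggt

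In *Timm8b* the ETS match began at position -12 from the start, with the first transcribed base as +1, and the NRF-1 match began at +19. The NRF-1 match began at -15 in *Pam16* and at -20 in *Tomm20*. *Timm10* held 3 ETS matches and no NRF-1 match. The first ETS match began at -16, and the other two, on opposite strands, overlap in the run of capitals from +14. Of the 36 members, 32 were matched to a promoter. The NRF-1 core stood in 4 of the 32 (12.5%), namely *Chchd4*, *Pam16*, *Timm8b* and *Tomm20*, and in 5.19% of 27025 genes with a promoter. The ETS core stood in 14 of the 32 (43.8%), against 9.93% of those genes. The YY1 core AAGATGGC was present in 3 of the 32 (9.38%), *Immp1l*, *Mtx1* and *Timm50*, against 3.19%. Among the members that rose in mKD muscle (below), *Gfer* and *Timm17b* held none of these cores and *Immp1l* only the YY1 core. *Tomm7*, which also rose, was not matched to a promoter. Promoters of members had a median GC content of 60.2% and a median of 20.5 CpG dinucleotides, against 52.7% and 7 over all promoters. The genes compared were not limited to expressed ones or matched for GC or CpG content, and no test was run on these shares. A match is a description of the letters and not a measured binding site.

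*Tet3* itself had normalised counts of 594, 536 and 708 in WT libraries 1 to 3 and 425, 318 and 472 in mKD libraries 1 to 3. Every mKD library was below every WT library, at a log2 fold change of -0.60 ± 0.18 (SE, limma; adjusted p = 0.18) and an exact permutation p of 0.10, the smallest that 3 mice against 3 allow. It passed the 1.2-fold rule described below, but not once the trend of fold change over transcript length was removed (log2 fold change -0.22 over each gene's longest transcript and -0.35 over its median transcript). Libraries held 16219227 to 32148270 reads, with WT 1 the shallowest, and the scarcest member still had at least 48 reads in each. All 8 skeletal muscle markers were detected and none passed the test. Summed over 10 markers of Schwann cells and nerve, the level was 2553 to 2639 in WT libraries, and 39601, 2019 and 12220 in mKD libraries 1, 2 and 3, and 3 of the 10 markers were higher in mKD mice. Summed endothelial markers were 12530 to 14709 in WT and 7699 to 9804 in mKD libraries, with 6 of 10 lower. Of 8 adipocyte markers, 2 were higher. Their sum without *Car3*, which muscle also expresses, was 4258 to 4790 in WT and 5939 to 9676 in mKD libraries. No marker in these lists was at 0 in all libraries. In whole tissue, fewer cells of a type and less RNA per cell cannot be told apart.

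Import genes leaned towards higher levels in mKD muscle, by small amounts. A gene was called when it differed by at least 1.2-fold with an unadjusted p under 0.05 by limma on log2(value + 1), and fold changes are given as mKD over WT on that scale. By this rule 7 of the 36 members (19.4%) rose, none fell and 29 did not pass, whereas 8.31% of 12322 genes tested rose and 9.51% fell. The 7 were *Timm8b*, *Timm10*, *Gfer*, *Pam16*, *Timm17b*, *Immp1l* and *Tomm7*. The log2 fold change was above 0 in 33 of 36 members (91.7%) and in 51.1% of all genes, with a median of 0.23 over the members and 0.01 over all genes. In 12 members (33.3%) all mKD libraries were above all WT libraries, and in none all below, while 12.1% of all genes were separated upwards and 12.7% downwards. No member reached an adjusted p under 0.05 by limma or by edgeR, although 8 had an unadjusted p under 0.05 by limma and 8 by edgeR, and 18.1% of all genes had one by limma. The smallest adjusted p by limma among the members was 0.14, for *Timm8b*, and only 0.0162% of all genes had an adjusted p under 0.05. DESeq2 on the recovered reads called *Timm8b* alone (adjusted p = 0.0189), against 4.34% of all genes, and the adjusted p of *Timm8b* ran from 0.0189 to 0.71 over all alternatives. With 1 library left out, 6 to 12 members rose, against 581 to 1111 of the 12322 genes tested. There were 12 without WT library 3, the fit in which 1111 genes rose.

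**Figure D1:**
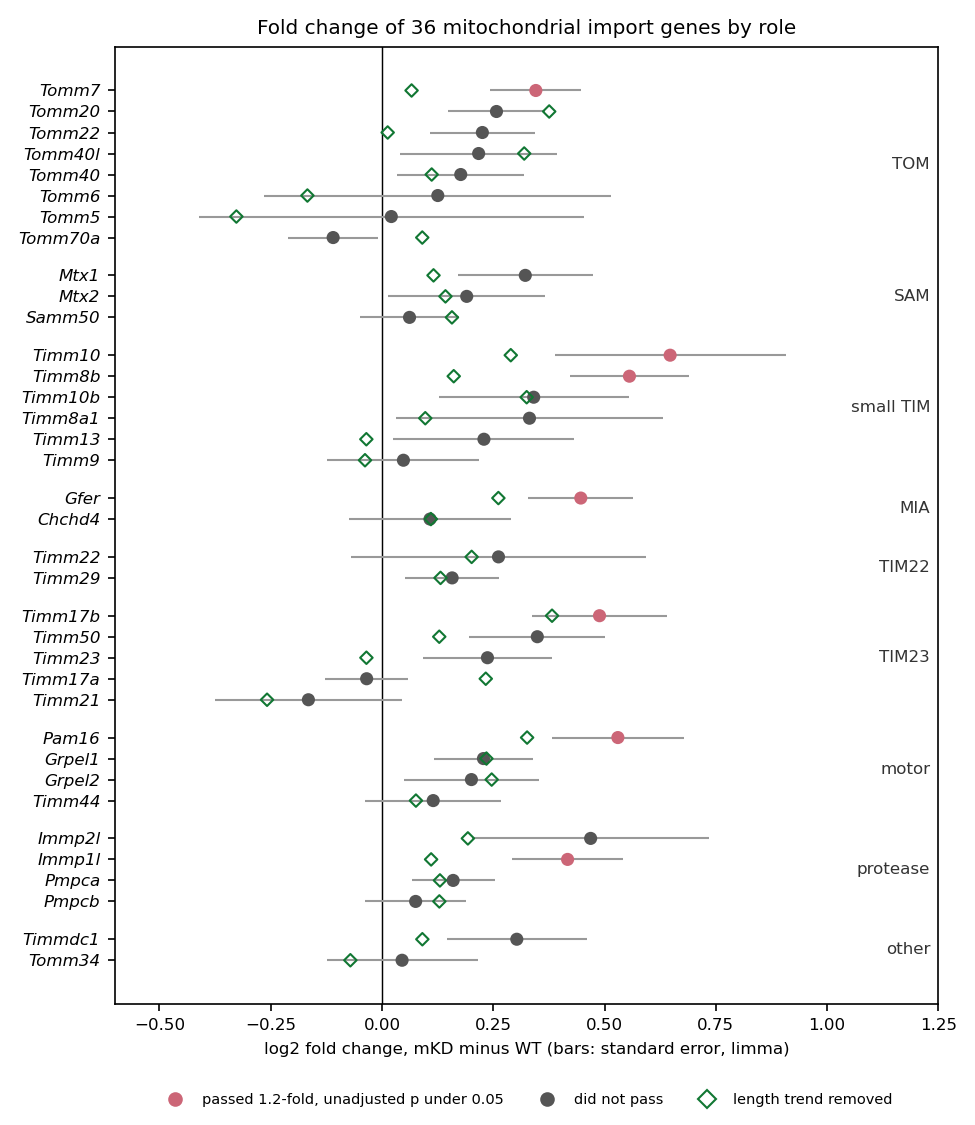
Log2 fold change of the 36 import genes, mKD over WT, by role; bars are the limma standard error and open diamonds the value after removal of the trend over the longest transcript. Points lie to the right of 0 in 33 genes, and the 7 that passed the test range from 0.35 (*Tomm7*) to 0.65 (*Timm10*).

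Transcript length moved with these fold changes. Across all genes with an annotated transcript, shorter transcripts were higher in mKD libraries: Spearman's rho between the log2 fold change and the longest transcript was -0.45 over 12315 genes and -0.52 over the 36 members, genes that share the same 6 libraries. The members' longest transcripts had a median of 2442 nucleotides, against 3480 over all genes. All 7 members that rose were among the 18 shorter ones, whose median log2 fold change was 0.34, and the 18 longer ones had a median of 0.16. With the trend over the longest transcript taken out of each library, 3 of the 36 members passed the rule, *Pam16* (0.33), *Timm17b* (0.38) and *Tomm20* (0.38). Over all genes 5.04% were then higher and 5.46% lower. The members' median was then 0.13, and 29 of them were above 0 (51.9% of all genes). With the median transcript of each gene in place of the longest, 10 of the 36 members passed, and the members' median was 0.20. Over all genes 6.67% were higher and 8.06% lower in that fit. The 10 were *Timm8b*, *Gfer*, *Pam16*, *Timm17b*, *Immp1l* and *Tomm7*, which had passed without the correction, together with *Tomm20*, *Grpel1*, *Grpel2* and *Timm29*. *Timm10* lost its call under both corrections. Where a gene's value with the length trend removed is given below, the longest transcript comes first and the median transcript second. The longest transcript is a loose measure for some members: that of *Timm17a* has 7280 nucleotides, and the median of its transcripts 600.5.

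**Figure D2:**
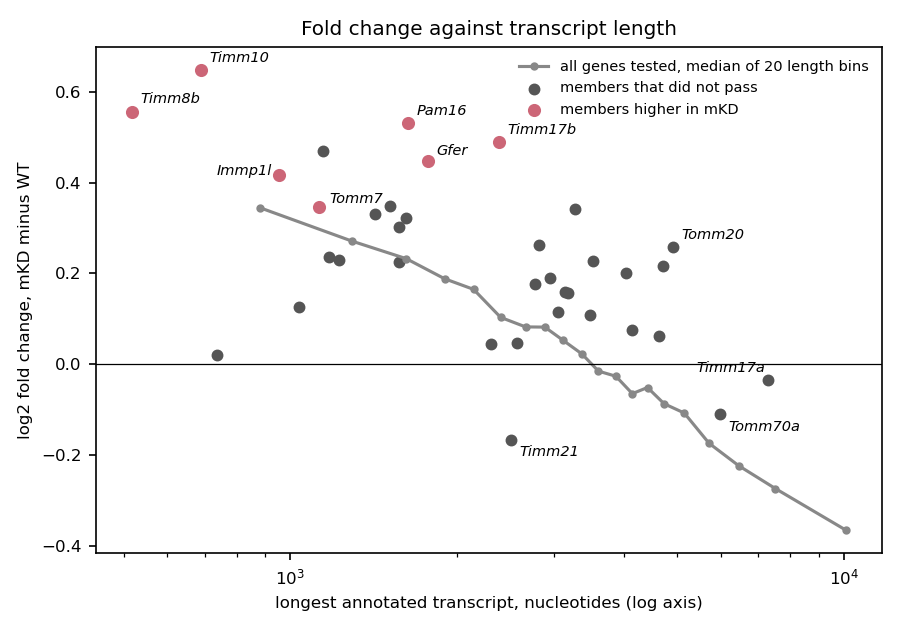
Log2 fold change, mKD over WT, of each import gene against its longest annotated transcript in nucleotides on a log axis; the grey line joins the medians of length bins over all genes tested. The line falls from 0.34 in the shortest bin to -0.36 in the longest. *Pam16*, *Gfer*, *Timm17b*, *Immp1l*, *Tomm7* and *Tomm20* are among the genes above it, and *Timm8b* and *Timm10* lie left of its first point.

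At the outer membrane, the TOM complex was represented by 8 members, of which 1 rose, 7 did not pass and none fell, with log2 fold changes from -0.11 to 0.35. *Tomm7* (chr5:23838944-23844161, minus strand), a small subunit that modulates assembly of the complex and in mammals helps to hold PINK1 at the outer membrane, was at 1487, 1375 and 1306 in WT and 1814, 1779 and 1700 in mKD libraries. Its genotypes did not overlap, and the log2 fold change was 0.35 ± 0.10 (SE, limma; adjusted p = 0.18). After removal of the length trend the value was 0.067, which did not pass, or 0.27, which did. *Tomm20* (chr8:126930667-126945844, minus strand) encodes a receptor for presequences and had the highest mean count of the TOM genes over the 6 libraries. It was at 1372, 1509 and 1452 in WT and 1657, 1905 and 1626 in mKD libraries, without overlap and with mKD 2 the highest. The log2 fold change was 0.26 ± 0.11 (SE, limma; adjusted p = 0.27), just under the 1.2-fold limit, and it was 0.38 or 0.37 with the length trend removed, and passed in both. *Tomm22*, the central receptor that joins the channel to the other receptors, was at 876, 900 and 985 in WT and 1011, 1199 and 1024 in mKD libraries. These did not overlap, at a log2 fold change of 0.23 ± 0.12 that did not pass (adjusted p = 0.35, limma).

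*Tomm70a*, the receptor for carrier precursors and a docking site for cytosolic chaperones, had the highest mean count of the complex in WT muscle. Per kilobase of longest transcript its WT mean (255) was above only that of *Tomm40l* (236) among the TOM members. *Tomm70a* was at 1494, 1529 and 1534 in WT and 1320, 1396 and 1513 in mKD libraries. These overlapped, with a log2 fold change of -0.11 ± 0.10. It was the only TOM member below 0, and was 0.091 or 0.10 with the length trend removed. The channel gene *Tomm40* had WT and mKD means of 788 ± 105 and 890 ± 98.2 (SD, n = 3 each), and its relative *Tomm40l*, expressed at similar counts in this muscle, had means of 1111 ± 256 and 1273 ± 127. Exons of *Tomm40l* overlap *Nr1i3* on the other strand (64.3% of exonic bases), and it is unknown whether counting was by strand. Among members that rose, such overlaps were found for *Pam16* (18.7%, *Glis2*), *Timm8b* (15.6%, *Nkapd1*) and *Timm17b* (4.58%, *Gm10491*). Members that did not pass had them too, such as *Mtx1* (21.2%, *Gm43737*), *Pmpca* (20.4%, *Inpp5e*) and *Grpel1* (11.6%, *Tada2b*). How many reads of the overlapping genes entered these counts was not tested. *Tomm5* and *Tomm6*, small subunits that stabilise the complex, spread more widely between mice than any other TOM member. Across libraries *Tomm5* ran from 212 to 764, with both ends in mKD libraries, and *Tomm6* from 241 to 717, with both ends in WT libraries. *Tomm6* shares most of its exonic sequence with the annotated gene *Gm21981* on the same strand, so its own counts are uncertain.

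The SAM complex, which inserts β-barrel proteins, had 3 members and none passed. *Samm50*, its barrel-shaped core and also part of the bridge to the cristae, was at 4997, 4401 and 5193 in WT and 4672, 5427 and 5124 in mKD libraries. These overlapped almost entirely (log2 fold change 0.06 ± 0.11). *Mtx1*, a metaxin on the cytosolic side of the complex, was at 206, 223 and 255 in WT and 289, 258 and 307 in mKD libraries. The genotypes did not overlap, but the lowest mKD and highest WT values were nearly equal, and the log2 fold change of 0.32 ± 0.15 did not pass (limma, adjusted p = 0.31). Its partner *Mtx2* had a log2 fold change of 0.19 ± 0.18.

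The small TIM chaperones of the intermembrane space had the highest median log2 fold change of the roles with more than 2 members, 0.34, and the shortest transcripts, with a median of 1323 nucleotides. Of 6 members 2 rose and 4 did not pass, and the median was 0.13 with the trend over the longest transcript removed. *Timm8b* (chr9:50603910-50605320, plus strand) belongs to the family of *Timm8a1*, whose human counterpart is mutated in deafness-dystonia syndrome. It was at 1378, 1667 and 1389 in WT and 2360, 2281 and 1885 in mKD libraries, the latter all higher. The log2 fold change was 0.56 ± 0.13 (SE, limma; adjusted p = 0.14), a 1.47-fold difference. Its longest transcript, 518 nucleotides, is the shortest among the members, and with the length trend removed the value was 0.16, which did not pass, or 0.42, which did.

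*Timm10* (chr2:84826997-84830213, plus strand), which forms with *Timm9* the hexameric chaperone that carries hydrophobic precursors, was at 287, 348 and 538 in WT and 519, 771 and 518 in mKD libraries. WT 3 lay above 2 of the mKD libraries, so the genotypes overlapped. The log2 fold change, 0.65 ± 0.26, was the largest of the 36 (adjusted p = 0.25, limma), and it was 0.29 or 0.55 with the length trend removed. The call was lost without WT 1 (0.45), without WT 2 (0.59) or without mKD 2 (0.46), and without WT 3 the value was 0.90. *Timm9* overlapped between genotypes. Its WT mean was 236 ± 13.1 and the mKD mean 246 ± 42.7 (SD, n = 3 each), a log2 fold change of 0.05 ± 0.17. *Timm13*, the partner of the Timm8 proteins, *Timm10b*, which docks the chaperones on the TIM22 complex, and *Timm8a1* had log2 fold changes of 0.23, 0.34 and 0.33, none of which passed.

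The MIA relay has 2 members. *Gfer* (chr17:24693187-24696156, minus strand), the sulphhydryl oxidase that reoxidises the relay, was at 610, 698 and 602 in WT and 811, 921 and 871 in mKD libraries. The lowest mKD library was above the highest WT library by more than the SD of either group. This was a log2 fold change of 0.45 ± 0.12 (SE, limma; adjusted p = 0.16), and with the length trend removed 0.26, which did not pass, or 0.38, which did. *Chchd4*, the receptor and oxidoreductase that passes disulphides to its substrates, had means of 402 ± 77.4 in WT and 430 ± 54.9 in mKD muscle (SD, n = 3 each), and overlapped.

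**Figure D3:**
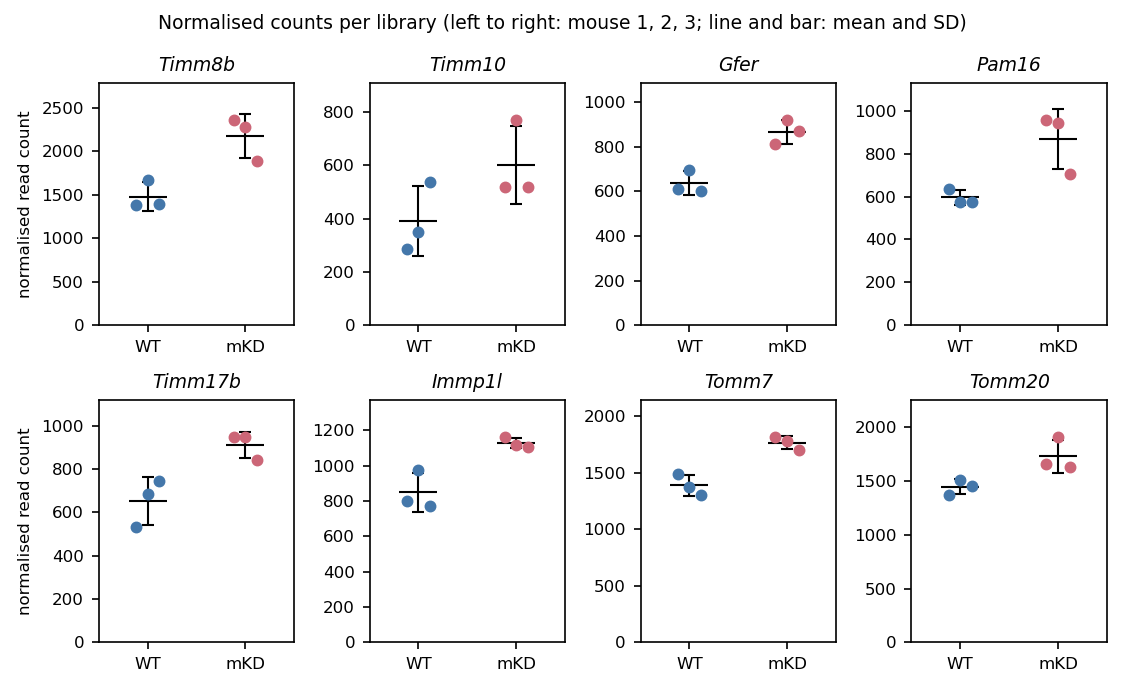
Normalised read count in each library (blue WT, red mKD; horizontal line and bar, mean and SD of 3) for the 8 import genes with an unadjusted p under 0.05, on axes that start at 0. WT and mKD points separate in each panel but that of *Timm10*, where WT 3 (538) exceeds mKD 1 (519) and mKD 3 (518).

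At the inner membrane, neither member of the TIM22 carrier translocase passed. *Timm29*, a subunit that links the translocase to the TOM complex, was at 2008, 2398 and 2137 in WT and 2418, 2472 and 2389 in mKD libraries, and WT 2 lay just above mKD 3. Its log2 fold change was 0.16, or with the length trend removed 0.13, which did not pass, or 0.30, which did. The channel gene *Timm22* was at 277 to 572 in WT and 333 to 637 in mKD libraries.

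Of the 5 members of the TIM23 channel 1 rose, 4 did not pass, and 2 were below 0. *Timm17b* (chrX:7899357-7908351, plus strand), which encodes one of 2 alternative Timm17 subunits that line the translocation path, was at 532, 685 and 747 in WT and 948, 947 and 841 in mKD libraries. WT 1 was the lowest and no WT library reached an mKD library. *Timm17b* rose by 0.49 ± 0.15 on the log2 scale (SE, limma; adjusted p = 0.19), and 0.38 or 0.40 with the length trend removed, where it passed in both. *Timm17a*, the other Timm17 gene, was at 2767, 2754 and 2571 in WT and 2594, 2697 and 2607 in mKD libraries, with overlap and a log2 fold change of -0.034 ± 0.09. *Timm50*, the receptor that takes presequences from the TOM complex and, in yeast, keeps the channel closed, was at 586, 740 and 862 in WT and 929, 921 and 905 in mKD libraries. The mKD libraries were tightly grouped and all above WT, and the log2 fold change of 0.35 ± 0.15 did not pass (limma, adjusted p = 0.28). It was 0.13 or 0.22 with the length trend removed. *Timm23*, the channel gene itself and the most highly counted gene of the complex in mKD muscle, was at 3078, 2366 and 2573 in WT and 3004, 3648 and 2799 in mKD libraries, which overlapped. Near-identical copies of *Timm23* are annotated, of which *Gm10273* had a mean count of 35.7. *Timm21*, which couples the translocase to the respiratory chain, had the lowest log2 fold change of all members, -0.17 ± 0.21, and overlapped.

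Of the 4 members of the import motor 1 rose. *Pam16* (chr16:4616464-4624988, minus strand), a J-like protein known from yeast to hold in check the co-chaperone of mitochondrial Hsp70, was at 637, 576 and 575 in WT and 957, 942 and 705 in mKD libraries. mKD 3 was the lowest of the mKD libraries and still above every WT library. *Pam16* rose by 0.53 ± 0.15 on the log2 scale (SE, limma; adjusted p = 0.17), and 0.33 or 0.37 with the length trend removed, where it passed in both. A near-identical copy, *Gm9803*, matches *Pam16* over 89.6% of the transcript aligned, with a mean count of 24.6. Reads of either may have been assigned to the other, and how many was not tested. *Grpel1*, the nucleotide exchange factor of mitochondrial Hsp70, was at 1731, 1866 and 1954 in WT and 2126, 2392 and 1995 in mKD libraries. The genotypes did not overlap, but the log2 fold change of 0.23 ± 0.11 did not pass (limma, adjusted p = 0.33), and with the length trend removed it was 0.24, which did not pass, or 0.40, which did. *Grpel2*, the second exchange factor, and *Timm44*, which tethers the motor to the channel, had log2 fold changes of 0.20 ± 0.15 and 0.12 ± 0.15. *Grpel2* passed, at 0.40, with the trend over the median transcript removed.

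Among the 4 peptidase genes 1 rose. *Immp1l* (chr2:105904638-105965558, plus strand), a catalytic subunit of the inner membrane peptidase that trims proteins bound for the intermembrane space, was at 798, 978 and 772 in WT and 1162, 1119 and 1104 in mKD libraries. No libraries overlapped and the mKD values lay within a narrow range. An annotated copy, *Gm8121*, matches 52.3% of the *Immp1l* transcript at 99.0% identity and has no listed values. *Immp1l* rose by 0.42 ± 0.12 on the log2 scale (SE, limma; adjusted p = 0.18), and with the length trend removed 0.11, which did not pass, or 0.33, which did. *Immp2l*, the other catalytic subunit, was counted at 110 to 201 in WT and 164 to 225 in mKD libraries and did not pass (log2 fold change 0.47 ± 0.27). *Pmpca*, the substrate-binding subunit of the matrix processing peptidase, had the highest mean count of all members in either genotype, although *Samm50* was above it in WT 1 and WT 3. *Pmpca* was at 4907, 5181 and 4877 in WT and 5389, 5771 and 5560 in mKD libraries. These did not overlap, at a log2 fold change of only 0.16 ± 0.09 (adjusted p = 0.40, limma). The catalytic subunit *Pmpcb* had a log2 fold change of 0.08 ± 0.11.

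Among genes that the naming rule takes in but that are not import components, *Timmdc1*, an assembly factor of respiratory complex I, was at 645, 575 and 683 in WT and 682, 958 and 728 in mKD libraries. WT 3 was level with mKD 1, and mKD 2 was the highest. *Tomm34*, a cytosolic co-chaperone of Hsp70 and Hsp90, had a log2 fold change of 0.05 ± 0.17. Neither passed.

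Members differed far more in level than between genotypes. Per kilobase of longest transcript, the WT means ran from 59.4 for *Timm8a1* to 2853 for *Timm8b*. *Timm23* (2278), *Pmpca* (1591), *Tomm7* (1235) and *Samm50* (1051) followed *Timm8b*. Next above *Timm8a1* stood *Timm10b* (80.4) and *Timm9* (92.0). Per kilobase of median transcript the order differed: *Pmpca* (7507), *Samm50* (5896), *Timm17a* (4492) and *Timm23* (3732) stood above *Timm8b*, and *Timm8a1* was again the lowest.

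Relative to the WT mean, the members' median log2 level was -0.07, -0.03 and 0.09 in WT libraries 1, 2 and 3, and 0.18, 0.36 and 0.16 in mKD libraries 1, 2 and 3. Each mKD library was above each WT library, and mKD 2 stood highest. It held the highest value of the 6 libraries in 19 of 36 members and was above the WT mean in 35. In the same 6 libraries the median over all genes lay between -0.0010 and 0.019. With the trend over the longest transcript removed the members' medians were -0.04, -0.03 and 0.07 in WT and 0.10, 0.25 and 0.11 in mKD libraries. Leaving out each library in turn gave a members' median fold change from 0.15, without mKD 2, to 0.28.

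**Figure D4:**
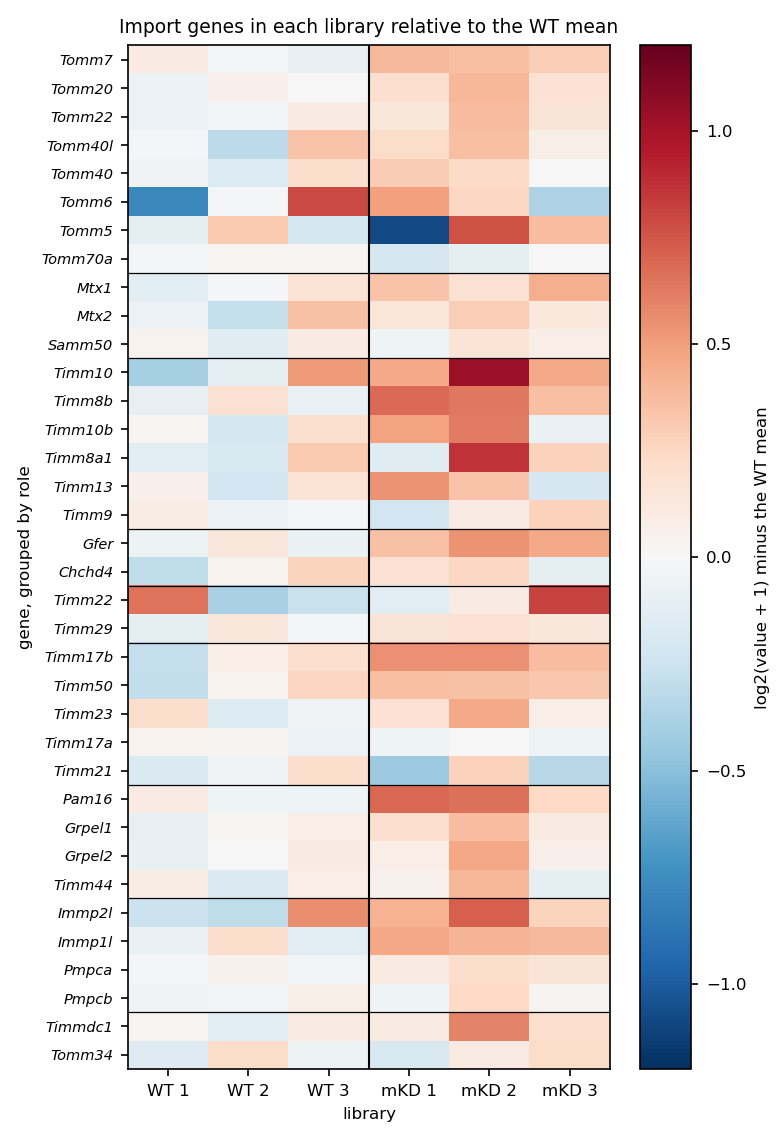
Log2(value + 1) of each import gene (rows, by role) in each library (columns) minus the mean of the 3 WT libraries. Red, above the WT mean, fills 35 of 36 rows in mKD 2, 26 in mKD 1 and 27 in mKD 3.

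mKD 2 was also the mKD library with the lowest Schwann cell and nerve marker sum, 2019, below the WT range. Erythroid markers, of which none passed the test, summed to 3732, 3736 and 6902 in WT libraries and 2906, 11831 and 3918 in mKD libraries. Their highest library of each genotype, WT 3 and mKD 2, was also that with the highest members' median. WT 3 and mKD 2 were likewise the highest of their genotype for endothelial markers (14709 and 9804). They were the lowest for skeletal muscle (3834272 and 3640929), fibroblast (7385 and 6492), adipocyte, and Schwann cell and nerve markers. Leukocyte markers were highest in WT 1 (1411) and mKD 2 (1519). With mKD 1 and 3 left out, a choice made after the data were seen, the mKD arm is mKD 2 alone and the members' median is by construction its 0.36. On the assumption that mKD 2 varies as the WT libraries do, 8 members passed, against 3.73% of all genes higher and 5.96% lower. *Immp1l*, *Timm17b* and *Tomm7* lost the call, and *Timm10b*, *Timm8a1*, *Timmdc1* and *Tomm5* gained it. Like the median, the calls in this fit were favoured by the choice of mKD 2, the library in which the members stood highest. They cannot be weighed against the shares of all genes, and no conclusion is drawn from them. The part that endothelial, adipocyte, nerve, fibroblast, leukocyte and erythroid cells play in the members' fold changes was not tested.

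Some members work as pairs or as alternatives to each other, and the log2 ratio within each library was compared for 10 such pairs. Dividing 1 gene by another in the same library removes any factor that both share. In 2 pairs the genotypes separated, each at an exact two-sided permutation p of 0.10, the smallest possible with 3 against 3, and 0.50 after Benjamini-Hochberg adjustment over the pairs, so neither difference passed. The log2 ratio of *Timm17a* to *Timm17b* was 2.38, 2.01 and 1.78 in WT libraries and 1.45, 1.51 and 1.63 in mKD libraries. The means were 2.05 ± 0.30 and 1.53 ± 0.09 (SD, n = 3 each), a difference of -0.52. *Timm17a* thus remained the more highly counted of the pair in every mouse, by a narrower margin in mKD muscle. With the length trend removed the difference was -0.15 over the longest transcript and -0.55 over the median transcript, and it was -0.66 to -0.36 with 1 library left out.

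The log2 ratio of the receptor genes *Tomm20* to *Tomm70a* was -0.12, -0.02 and -0.08 in WT libraries and 0.33, 0.45 and 0.10 in mKD libraries. *Tomm70a* had the higher count of the pair in each WT library and *Tomm20* in each mKD library. Per kilobase of longest transcript, however, *Tomm20* already had the higher WT mean, 295 against 255. Over the median transcript the WT means were 539 and 364. The means were -0.07 ± 0.05 and 0.29 ± 0.17 (SD, n = 3 each), a difference of 0.37, or 0.29 and 0.27 with the length trend removed over the longest and the median transcript. For the other 8 pairs the genotypes overlapped. The ratio of the processing peptidase subunits *Pmpca* to *Pmpcb* differed by 0.08 (means 1.58 ± 0.10 and 1.67 ± 0.10), and that of *Grpel1* to *Grpel2* by 0.03.

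**Figure D5:**
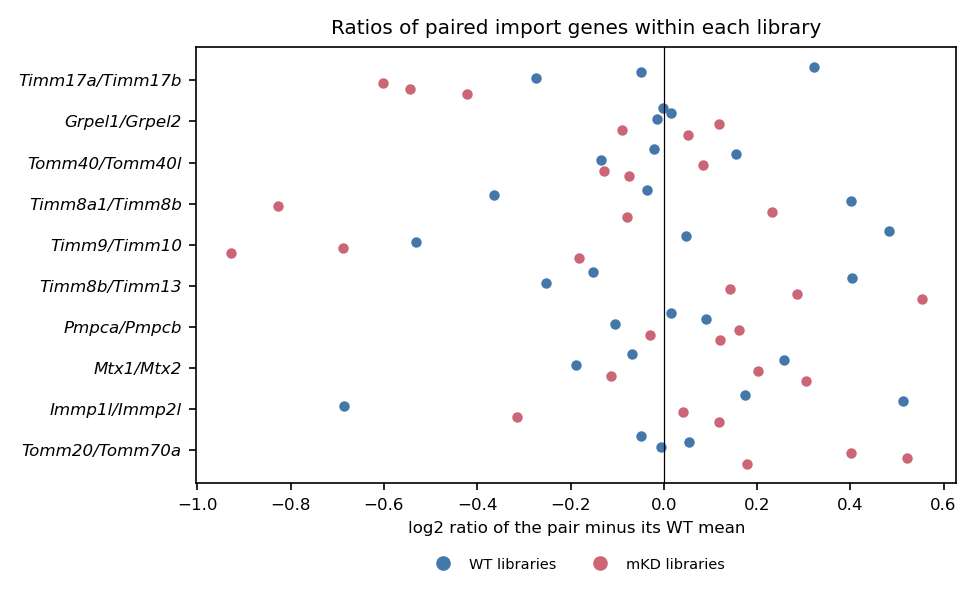
Log2 ratio of paired import genes in each library minus the WT mean of that ratio (blue WT, red mKD; 1 row per pair). *Timm17a* over *Timm17b* in mKD libraries lies left of all WT points, *Tomm20* over *Tomm70a* lies right of them, and the points of the other pairs overlap.

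A wider list of 31 genes that act on proteins once inside mitochondria or shape the membranes they enter (chaperones, proteases, J-proteins, cristae organisers and insertases) was tested in the same fit. Of these 7 rose (22.6%), none fell and 24 did not pass, with a median log2 fold change of 0.16. Over all genes 8.31% rose and 9.51% fell, with a median of 0.01. *Clpp*, the proteolytic subunit of a matrix protease, was at 665, 729 and 774 in WT and 1075, 1164 and 981 in mKD libraries, a log2 fold change of 0.57 (adjusted p = 0.12, limma). Its ATPase partner *Clpx* overlapped between genotypes (-0.044). *Dnajc15* and *Dnajc19*, J-proteins of the inner membrane that act with the motor, rose by 0.44 each, *Hspe1*, the co-chaperonin of Hsp60, by 0.32, *Trap1*, the mitochondrial Hsp90, by 0.32, and *Mipep*, which trims presequences after the processing peptidase, by 0.30. *Romo1*, a small inner membrane protein, had the largest value of the list, 0.71. Its genotypes overlapped, with WT 3 (1596) above mKD 3 (1453), and so did those of *Dnajc19*, with WT 3 (869) above mKD 3 (847). The rest of the genes that rose were separated. *Hspa9*, the Hsp70 of the motor, and *Hspd1*, the Hsp60 chaperonin, had log2 fold changes of 0.13 and 0.03 and did not pass. With the trend over the longest transcript removed, 3 of the 31 passed, *Clpp*, *Dnajc15* and *Mipep*, and the median was 0.11. In that fit 5.04% of all genes were higher and 5.46% lower. With the trend over the median transcript removed, 5 rose and 1 fell, against 6.67% of all genes higher and 8.06% lower. The gene that fell was *Yme1l1* (-0.31), whose mKD libraries all lay below all WT libraries. Left-out libraries moved the count to 3 without WT 1 or without mKD 2, to 4 without mKD 1, and to as many as 10. Over all 12322 genes, 581 to 1111 rose with 1 library left out.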

How the data were processed

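The 3 WT and 3 mKD libraries were grouped by the genotype in the labels. For each gene, the deposited table lists a normalised signal in every library, made by the authors from read counts with a single scaling factor per library; the paper names Partek Flow version 9.0.20.0622 and DESeq2. Per the submitters' processing notes the build was GRCm38 (mm10), while neither aligner nor counter, nor whether counting used strand, is given in the sources used here. Columns with the authors' group means, log2 fold changes and p-values were not used, and 0 columns of other samples were present.

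Dividing by the smallest positive value of each library gave whole reads for 100% of values within 1e-04, 16219227 to 32148270 per library. These totals limit precision for scarce genes. Members and gene lists were chosen with earlier results of these data known. Limma 3.58.1 (R 4.3.3) with a trend was run on log2(value + 1), with a genotype term alone. Benjamini-Hochberg adjustment ran over 12322 genes, those passing edgeR's filter on low counts. This replaced a count test as the main test because the values are normalised. The call rule was 1.2-fold and an unadjusted p under 0.05, with an adjusted p under 0.05 given beside it. edgeR 4.0.16 (TMM, quasi-likelihood) and DESeq2 1.42.0 were run on the recovered reads. Over all genes, edgeR put 1100 higher and 1123 lower by the 1.2-fold rule and 2 past the adjusted threshold. The script was tested on simulated counts. The length trend was removed per library by lowess (span 0.3) over log2 transcript length (GENCODE M21). Other alternatives were TMM and upper-quartile scaling, no filter, a mean of at least 50, pseudocounts of 0.5 and 4, a replicate block, 1.5-fold, an adjusted p of 0.1 and each library left out. Replicate mice of 1 genotype differed by more than sampling noise. Per-library values are given for members with an unadjusted p under 0.05, members whose genotypes did not overlap and the highest member of each role.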

Additional observations from a re-analysis of the deposited data

How the results depend on the processing

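Directions and calls of the members were the same under upper-quartile scaling, DESeq2, pseudocounts of 0.5 and 4, a mean count of at least 50 and the replicate block, in 36 of 36 members each; TMM scaling added 2 calls, edgeR 1 and no filter 1. TMM scaling moved the median of all genes by 0.013 and upper-quartile scaling by -0.0059. DESeq2 gave 1 member past the adjusted threshold, *Timm8b*. A fold of 1.5 left 1 call, *Timm10*, whose genotypes overlapped, and the share of all genes past that fold is not given. With the length trend over the longest transcript removed, 3 members and 3 of the wider list rose, the members' median was 0.13, *Tet3* was at -0.22 and the difference in the *Timm17a* to *Timm17b* ratio was -0.15. With the replicate block as well, 1 member (*Tomm20*) and 2 of the wider list rose, against 510 of 12315 genes. The members' median was again 0.13 and *Tet3* was at -0.22. In both fits the sign turned for *Timm13* (-0.035), *Timm17a* (0.23), *Timm23* (-0.035), *Timm9* (-0.038), *Tomm34* (-0.071), *Tomm5* (-0.33), *Tomm6* (-0.17) and *Tomm70a* (0.091). Over the median transcript, *Tet3* was at -0.35, 1 gene of the wider list fell, and the sign turned for *Pmpcb* (-0.033), *Samm50* (-0.024), *Timm9* (-0.039), *Tomm5* (-0.070) and *Tomm70a* (0.10). With mKD 1 and 3 left out, an alternative chosen after seeing the data, the members' median was 0.36, that of mKD 2 alone, and *Timm17a* (9.0e-04) and *Timm21* (0.28) turned.

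With 1 library left out, 6 to 12 members rose. Of the wider list 3 to 10 rose and 0 to 1 fell (1 without WT 3). In those fits 581 to 1111 of all 12322 genes rose and 839 to 1193 fell. The members' median was 0.15 to 0.28, and *Tet3* was at -0.72 to -0.44. Signs turned for *Chchd4* (-0.043 to 0.24), *Tomm34* (-0.042 to 0.17), *Tomm5* (-0.35 to 0.57), *Tomm6* (-0.26 to 0.52), *Samm50* (-0.0084 to 0.12), *Pmpcb* (-0.0062 to 0.14), *Timm44* (-0.025 to 0.23), *Timm22* (-0.013 to 0.59) and *Timm9* (-0.065 to 0.19). Apart from *Timm10*, each of the 7 called members kept its call with every library left out. Why values moved was not tested. All alternatives for *Tet3*, the wider list and the gene pairs were also chosen after seeing the data. The replicate numbers are shared between genotypes. Deviations of same-numbered libraries correlated at 0.055, -0.051 and -0.076, and those of differently numbered libraries at -0.074 to 0.12. With so few libraries this cannot decide whether the numbers pair the mice. With the block 7 members rose, the same genes, against 778 of all 12322 genes. Depth limits *Timm8a1* most, with 48 reads in its shallowest library.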

Other observations

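*Gm21981*, an annotated gene that shares 76.0% of the exonic bases of *Tomm6* on the same strand, was examined after the values of *Tomm6* had been seen. It was at 207, 480 and 276 in WT and 666, 879 and 737 in mKD libraries, with no overlap (log2 fold change 1.32, limma, adjusted p = 0.13). *Tomm6* itself overlapped widely, at 241, 409 and 717 in WT and 583, 492 and 320 in mKD libraries. The sum of both was 448, 889 and 993 in WT libraries and 1248, 1371 and 1057 in mKD libraries, with every mKD library higher, at a log2 difference of 0.73 and an exact permutation p of 0.10, the smallest possible with 3 against 3. How the reads that fall in the shared exons were divided between both genes was not tested.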
